A study of Homo sapiens with 6 samples.

Results

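The histone genes of lenvatinib-resistant papillary thyroid carcinoma cells were compared between cultures with and without a hairpin against KRT15. They were taken by gene symbol, as every protein-coding gene of the deposited table named H1-, H2A, H2B, H3 or H4 in the current nomenclature. The choice gave 69 of the 16031 protein-coding genes, and no expression value entered it. In 51 of them the symbol carries a C and a number, the form used for genes of the histone clusters (H2BC12, H3C6). The other 18 are mainly histone variants and linker histones, but also hold some cluster-type genes, H1-2, H1-3, H1-4, H1-5, H1-6, H2BC12L and H4-16.

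Gene expression was measured by RNA sequencing in 6 cultures of TPC-1-Len, a papillary thyroid carcinoma line resistant to the kinase inhibitor lenvatinib. In the sh-KRT15 group (n = 3), cells had received by liposomal transfection a short hairpin RNA directed at KRT15, a keratin of basal epithelial cells. In the sh-NC group (n = 3) the transfected hairpin was a non-targeting one. Every culture was kept in 10 µM lenvatinib. The model has 1 cell line, 1 hairpin and no sensitive or untreated culture, which limits what a difference says of KRT15 or of resistance. The replicates are given as biological ones without naming separate transfections, and p-values therefore reflect only how much these 6 cultures vary.

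The core histones H2A, H2B, H3 and H4 wrap DNA into nucleosomes, and H1 linker histones bind the DNA between them. Replication-dependent genes, packed in clusters, supply histones while DNA is copied, and their mRNAs end in a conserved stem-loop in place of a poly(A) tail. The stem-loop is bound by SLBP, which serves processing, translation and turnover of the mRNA. Variant histones such as H2A.Z and H3.3 come from solitary genes with ordinary polyadenylated mRNAs and can be put into chromatin outside of DNA replication.

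Libraries held 39868231 to 41343780 counted reads in sh-KRT15 and 36286059 to 36808695 in sh-NC. Levels are CPM (read counts relative to library size) scaled with TMM factors, and log2 fold changes are sh-KRT15 over sh-NC with their standard error (SE). Of 14356 genes with enough reads to test, edgeR's quasi-likelihood test with Benjamini-Hochberg adjustment called 45.0% at an adjusted p under 0.05, 22.1% higher and 23.0% lower. The median log2 fold change over all tested genes was -0.0013. KRT15 itself was at 25.0, 24.3 and 24.9 CPM in sh-KRT15, against 28.7, 31.9 and 36.2 CPM in sh-NC. It fell by 0.38 ± 0.10 on the log2 scale (SE, edgeR adjusted p = 0.00465), so the targeted RNA was reduced in part. The thyroid factor PAX8 was at 410 ± 22 CPM in sh-KRT15 and 375 ± 2.92 CPM in sh-NC (SD, n = 3 each), while NKX2-1 and TSHR were near 0, EPCAM and CDH1 stayed under 0.1 CPM in both groups on average, and the leukocyte gene PTPRC had 0 reads in each sh-KRT15 library, against 21, 5 and 17 reads in sh-NC.

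Stem-loops were looked for in the transcript models of GENCODE 29 (GRCh38), as the element that separates replication-dependent from variant histone mRNAs. The search used the 16 letters of the core of the histone 3′ stem-loop consensus, 2 of them free, on the transcript strand and allowed 1 mismatch. Of the 51 C-numbered genes, 27 had the core in a model, 19 of them with no mismatch. In 23 of the 24 without it the longest model had a length divisible by 3, as a model of coding sequence alone has, and H2BC12 was 1 of these. Such a length does not show that a model is coding only: that of H4C3 has 435 bases, against 312 in H4C1. The exception was H2BC11, whose longest model has 950 bases. Of the other 18 genes, H2AX and H4-16 had it. The elements of the most-read genes that have one, and of the called gene H2BC9, are shown in transcript direction, with the core in capitals and 5 bases on each side.
H2AC6: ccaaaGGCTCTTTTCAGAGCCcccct
H2BC21: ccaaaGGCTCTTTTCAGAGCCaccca
H2BC9: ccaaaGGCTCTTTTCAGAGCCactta
H2BC4: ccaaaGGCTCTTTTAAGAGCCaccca
H2BC5: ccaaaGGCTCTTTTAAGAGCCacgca
H3C6: ccaaaGGCTCTTCTCAGAGCCaacca
H2AX: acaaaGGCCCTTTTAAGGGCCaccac
H2AC6, H2BC21 and H2BC9 held the core with no mismatch, and H2BC4, H2BC5, H3C6 and H2AX with 1. The annotated models ran on past the stem-loop, by 1128 bases in H2AC6, 1729 in H2BC21, 1640 in H2BC9, 1862 in H3C6, 1044 in H2AX, 116 in H2BC4 and 39 in H2BC5. In all, 19 C-numbered genes had a model with more than 100 bases after it. An mRNA cut at the stem-loop has no tail, whereas a transcript that reads past it can be polyadenylated. Libraries were made from purified mRNA by a method the labels do not name. None of 10 abundant RNAs that lack a tail, among them RN7SK, RMRP and RPPH1, matched a row of the table, and whether tailless histone mRNA was counted was not tested.

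C-numbered genes were lower in sh-KRT15 as a sum, and the other histone genes were higher. The summed level of the 51 C-numbered genes was 70.8, 72.2 and 74.0 CPM in sh-KRT15, against 134, 144 and 146 CPM in sh-NC. Every sh-KRT15 library lay below every sh-NC library, and the sh-NC mean was 1.95-fold the sh-KRT15 mean. The summed level of the other 18 genes was 1441, 1492 and 1465 CPM in sh-KRT15, against 1021, 1058 and 1130 CPM in sh-NC. Here each sh-KRT15 library lay above each sh-NC library, with means 1.37-fold apart. C-numbered genes gave 4.69, 4.62 and 4.81% of histone reads in sh-KRT15 and 11.6, 11.9 and 11.4% in sh-NC. All histone genes together took 0.155, 0.162 and 0.153% of counted reads in sh-KRT15 and 0.114, 0.117 and 0.125% in sh-NC. In bulk RNA, fewer cells in a given cell cycle phase and less RNA per cell cannot be told apart.

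**Figure D1:**
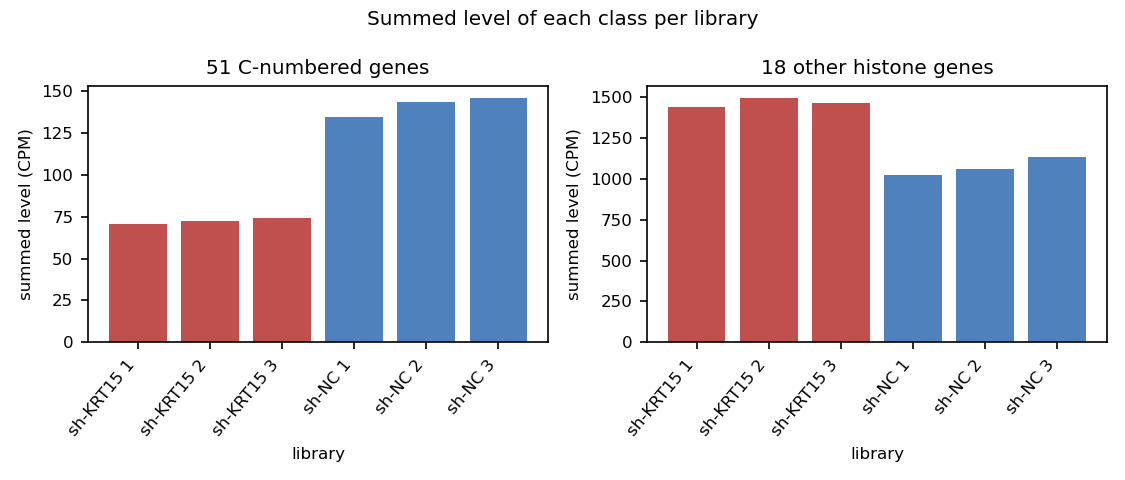
Summed level, in CPM, of the 51 C-numbered genes (left) and of the 18 other histone genes (right), 1 bar per library, sh-KRT15 in red and sh-NC in blue. The C-numbered sums are 70.8 to 74.0 CPM in sh-KRT15 and 134 to 146 CPM in sh-NC, and the other sums are 1441 to 1492 CPM in sh-KRT15 and 1021 to 1130 CPM in sh-NC.

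Enough reads for a test were present in 30 of the 69 genes, 19 C-numbered and 11 other. Of the 19, 6 fell (H2BC12, H2BC4, H2BC5, H2AC6, H3C6 and H2BC11), 2 rose (H2AC20 and H2BC9) and 11 did not pass the test. That is 31.6% lower and 10.5% higher, beside 23.0% and 22.1% over all tested genes. Of the 11 other genes, 6 rose (among them H2AX, H1-10, H2AZ2, H2AZ1 and H3-3A) and 5 did not pass, which is 54.5% higher. With edgeR 0 of the 11 was called lower, 1 had an unadjusted p under 0.05 (H2BC12L), and limma-voom called 1 lower and DESeq2 0. The median log2 fold change was -0.38 over the 19 and 0.40 over the 11, but the first is not stable: without sh-NC replicate 2 it was -0.0293, and without sh-KRT15 replicate 1 it was -0.70. Levels of the 2 groups did not overlap, with sh-KRT15 lower, in 7 of the 19 and none of the 11, beside 27.1% of tested genes. They did not overlap, with sh-KRT15 higher, in 4 of the 19 and 7 of the 11, beside 26.9% of tested genes.

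Calls of C-numbered genes differed with their abundance. Of the 7 whose mean over the 6 libraries reached 1 CPM, 6 fell and H2BC21 did not pass, and their median log2 fold change was -1.22. Among all 12421 tested genes at that level, 24.2% were higher and 24.9% lower, with a median of 0.0008. Of the 44 C-numbered genes with a mean under 1 CPM, 12 could be tested, and both that were called rose. These 2, H2AC20 and H2BC9, had few reads in sh-NC (2, 2 and 10, and 1, 20 and 8). They passed the filter on low counts through sh-KRT15, so the direction of calls under 1 CPM is not independent of the filter. With no filter, 2 C-numbered genes were called higher as well. Among the 1935 tested genes at that level, 8.32% were higher and 10.4% lower. H2BC11, with 0.640 CPM in sh-KRT15 and 1.51 CPM in sh-NC on average, lay just above the limit, and H2BC8, with 0.633 CPM in sh-KRT15 and 1.25 CPM in sh-NC, just below. H2BC11 reached the limit only through sh-NC, so the direction of its call is not independent of this split. The 44 low genes summed to 8.87, 8.22 and 7.62 CPM in sh-KRT15, against 6.07, 8.25 and 7.34 CPM in sh-NC, so their groups overlapped. Of the other histone genes, 9 reached 1 CPM on average, and 6 of these rose, with a median log2 fold change of 0.65.

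**Figure D2:**
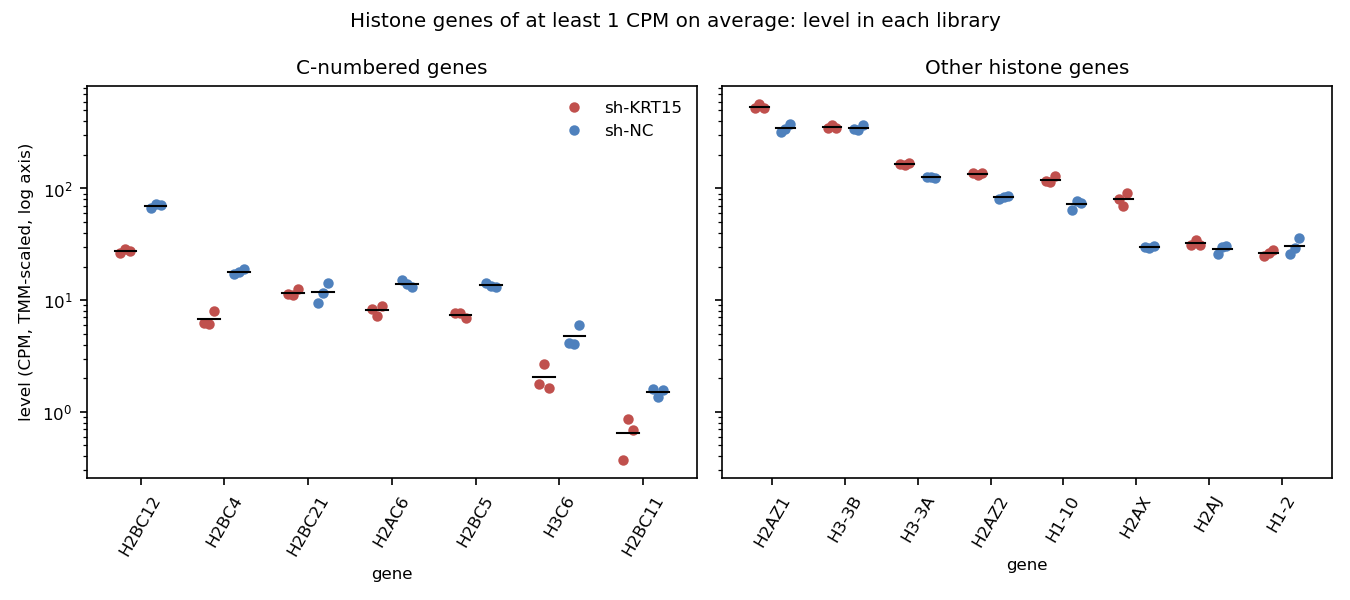
Level in each library (CPM, log axis) of histone genes whose mean reaches 1 CPM, with C-numbered genes on the left and other histone genes on the right. Points are libraries, sh-KRT15 in red and sh-NC in blue, and black bars are group means. Of the 7 C-numbered genes, 6 have their sh-KRT15 points below all sh-NC points, and of the 8 other genes shown, 6 have them above.

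Reads of the C-numbered genes were concentrated in few genes. H2BC12 held 45.4% of their 24140 reads over the 6 libraries, and 6 genes (H2BC12, H2BC4, H2BC21, H2AC6, H2BC5 and H3C6) held 91.5%. Without H2BC12, the sum of the remaining 50 was 44.4, 43.7 and 46.3 CPM in sh-KRT15, against 68.1, 70.8 and 74.2 CPM in sh-NC. The groups thus stayed apart, with a log2 ratio of -0.67 in place of -0.96. Most reads lay in genes of long annotated span: the 8 C-numbered genes whose RefSeq span exceeds 1000 bases held 81.9% of the reads, and the 43 shorter ones held 4358 reads together. Gene by gene the relation to RefSeq span did not hold. H2BC18 and H4C15, with the longest spans (29682 and 16753 bases), had 68 and 4 reads, whereas H2AC6, of 519 bases in RefSeq, had 2514. The case of H2AC6 depends on the annotation, as its longest GENCODE model has 1668 bases. For H2BC12 the longest GENCODE model has 381 bases, against a RefSeq span of 8566. The annotation used for counting is not known, so which length applies to the reads was not tested. H2BC12 alone held 10958 of the 19782 reads of the 8. Reads per gene depend on length too, so these shares do not rank the genes by molecules.

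**Figure D3:**
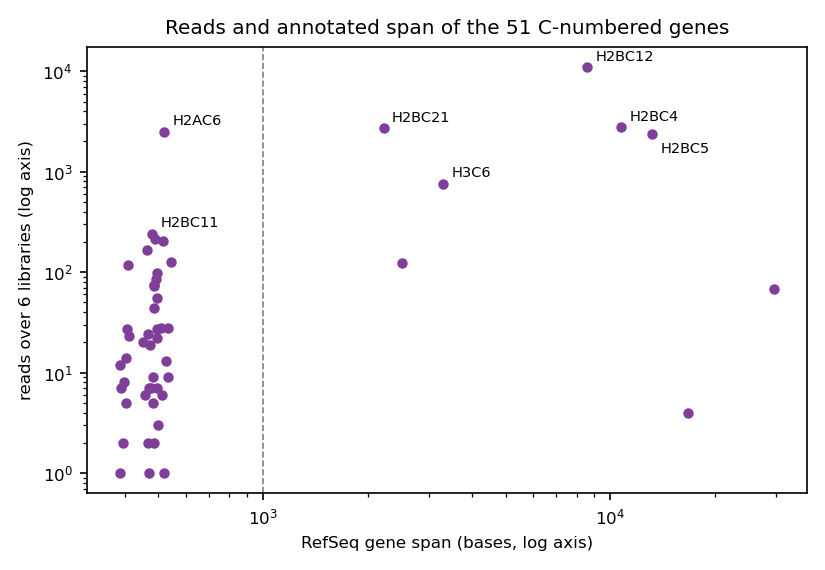
Reads of each of the 51 C-numbered genes over the 6 libraries (log axis) against the length of the gene in RefSeq (bases, log axis), with the most-read genes named and a dashed line at 1000 bases. Of the 6 genes with most reads, H2AC6 alone lies left of the line by its RefSeq length, while its longest GENCODE model has 1668 bases.

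Among H2B genes, H2BC12 (chr6:27138293-27146858, minus strand, GRCh38.p14) was at 26.4, 28.6 and 27.7 CPM in sh-KRT15, against 66.4, 72.8 and 71.5 CPM in sh-NC. The groups lay far apart, and H2BC12 fell by 1.35 ± 0.08 on the log2 scale (SE, edgeR adjusted p = 1.14e-09), the smallest adjusted p of a C-numbered gene. Of the 75-base windows of its coding model, 50.5% also occur in other genes, most often in its near copy H2BC12L, which had 61 reads beside the 10958 of H2BC12, and the overlapping gene H4C9 had 8 reads. H2BC4 (chr6:26113170-26123926) was at 6.18, 6.08 and 7.96 CPM in sh-KRT15, against 17.3, 17.99 and 18.9 CPM in sh-NC. H2BC4 fell by 1.42 ± 0.13 on the log2 scale (SE, edgeR adjusted p = 1.33e-07), and its groups did not overlap. H2BC5 (chr6:26158121-26171349) was at 7.60, 7.66 and 6.92 CPM in sh-KRT15, against 14.3, 13.5 and 13.2 CPM in sh-NC. It fell by 0.89 ± 0.12 (log2, SE, edgeR adjusted p = 1.62e-05), again with groups apart. These 3 genes all encode replication-dependent H2B, a partner of H2A in the nucleosome.

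H2BC11 (chr6:27132316-27132795) was at 0.366, 0.862 and 0.692 CPM in sh-KRT15, against 1.60, 1.35 and 1.58 CPM in sh-NC. It fell by 1.23 ± 0.40 (log2, SE, edgeR adjusted p = 0.0186), with groups apart but few reads. Its call was lost without sh-KRT15 replicate 1 (log2 -0.94, adjusted p = 0.0884) and without sh-NC replicate 1 (log2 -1.18, adjusted p = 0.0502). H2BC21 (chr1:149884459-149886682), in the smaller cluster on chromosome 1, was at 11.3, 11.0 and 12.7 CPM in sh-KRT15, against 9.47, 11.7 and 14.1 CPM in sh-NC. Its sh-KRT15 values lay inside the sh-NC range, with a log2 fold change of -0.01 ± 0.14 (SE, edgeR adjusted p = 0.95).

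H2BC9 (chr6:26251614-26252075) went the other way, with 48, 30 and 58 reads in sh-KRT15, against 1, 20 and 8 reads in sh-NC. It rose by 2.01 ± 0.64 (log2, SE, edgeR adjusted p = 0.0169), and its groups did not overlap. The call was lost without sh-KRT15 replicate 1 (log2 1.97, adjusted p = 0.0503) and without sh-KRT15 replicate 3 (log2 1.78, adjusted p = 0.0815). Of the 9 tested C-numbered H2B genes, 4 fell, 1 rose and 4 did not pass, with a median log2 fold change of -0.98. The last 4 were H2BC8 at -0.98 ± 0.43 (adjusted p = 0.0715), H2BC18 at -1.57 ± 0.75 (adjusted p = 0.0979), H2BC15 at -0.38 ± 0.55 (adjusted p = 0.607) and H2BC21. H2BC18 was called lower without sh-NC replicate 1 (log2 -2.03, adjusted p = 0.0354). The H2B sum was 55.1, 56.8 and 58.4 CPM in sh-KRT15, against 111, 121 and 122 CPM in sh-NC, the bulk of the C-numbered difference.

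Among C-numbered H2A genes, H2AC6 (chr6:26124172-26124690) was at 8.30, 7.15 and 8.80 CPM in sh-KRT15, against 15.2, 13.9 and 13.1 CPM in sh-NC. It fell by 0.80 ± 0.13 (log2, SE, edgeR adjusted p = 7.37e-05), with groups apart. H2AC20 (chr1:149886918-149887411) had 23, 23 and 39 reads in sh-KRT15, against 2, 2 and 10 reads in sh-NC. It rose by 2.36 ± 0.67 (log2, SE, edgeR adjusted p = 0.00793), and its groups did not overlap. Without sh-KRT15 replicate 3 the rise of H2AC20 missed the threshold (log2 2.04, adjusted p = 0.0565). The remaining tested H2A genes did not pass: H2AC8 was at -0.97 ± 0.44 (adjusted p = 0.0811), H2AC11 at 0.44 ± 0.68 (adjusted p = 0.639) and H2AC17 at 0.90 ± 0.61 (adjusted p = 0.252). H2AC8 was called lower without sh-NC replicate 1 (log2 -1.24, adjusted p = 0.0331). H2AC20 and H2AC17 share 23.7% and 85.3% of their 75-base windows with another gene, so their reads are less certain than those of H2AC6, which shares none.

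C-numbered H3 and H4 genes gave few reads. H3C6 (chr6:26224178-26227473) was at 1.78, 2.68 and 1.63 CPM in sh-KRT15, against 4.17, 4.07 and 5.95 CPM in sh-NC. H3C6 fell by 1.22 ± 0.24 (log2, SE, edgeR adjusted p = 0.000597), and its groups did not overlap. H3C10 was at 0.635, 0.303 and 0.445 CPM in sh-KRT15, against 0.138, 0.0842 and 0.282 CPM in sh-NC. Its groups lay apart with sh-KRT15 higher, but the log2 fold change of 1.44 ± 0.64 did not pass (edgeR adjusted p = 0.0778), and it passed without sh-NC replicate 3 (log2 2.02, adjusted p = 0.0484). H3C4 at 0.74 ± 0.54 (adjusted p = 0.284), H3C8 at 0.37 ± 0.82 (adjusted p = 0.745) and H4C8 at 0.20 ± 0.52 (adjusted p = 0.783) did not pass. H3C4 shares 100% of its 75-base windows with another gene and overlaps H2AC7 on the map, so its reads are less certain. The H3 sum was 3.79, 4.63 and 3.54 CPM in sh-KRT15, against 5.47, 4.66 and 6.97 CPM in sh-NC, with the groups just apart. The 11 H4 genes summed to 0.904, 1.19 and 0.569 CPM in sh-KRT15, against 1.44, 0.758 and 0.903 CPM in sh-NC, with the groups overlapping.

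The 39 untested genes had 299 reads in sh-KRT15 and 228 reads in sh-NC over 3 libraries each. Of these, 16 had at least 10 reads. H1-4, a linker histone, had most, with 21 reads in sh-KRT15 and 33 in sh-NC. H3C3 had 34 reads in sh-KRT15 and 10 in sh-NC, and H4-16 had 24 in sh-KRT15 and 15 in sh-NC. H3C1 had 23 in sh-KRT15 and 5 in sh-NC, and H2BC17 had 23 in sh-KRT15 and 1 in sh-NC. More reads in sh-KRT15 than in sh-NC were also counted for H2AC13 (18 and 9), H2AC15 (15 and 7), H2BC13 (15 and 5), H2AC4 (12 and 1), H1-3 (12 and 10), H4C4 (8 and 6) and H4C12 (7 and 5). Fewer reads in sh-KRT15 than in sh-NC were counted for H2AC18 (6 and 22), H4C3 (11 and 16), H4C5 (8 and 15) and H2BC7 (6 and 13). The other 23 genes had 1 to 9 reads each, 56 in sh-KRT15 and 55 in sh-NC in all, and no statement on their change is possible at this depth.

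**Figure D4:**
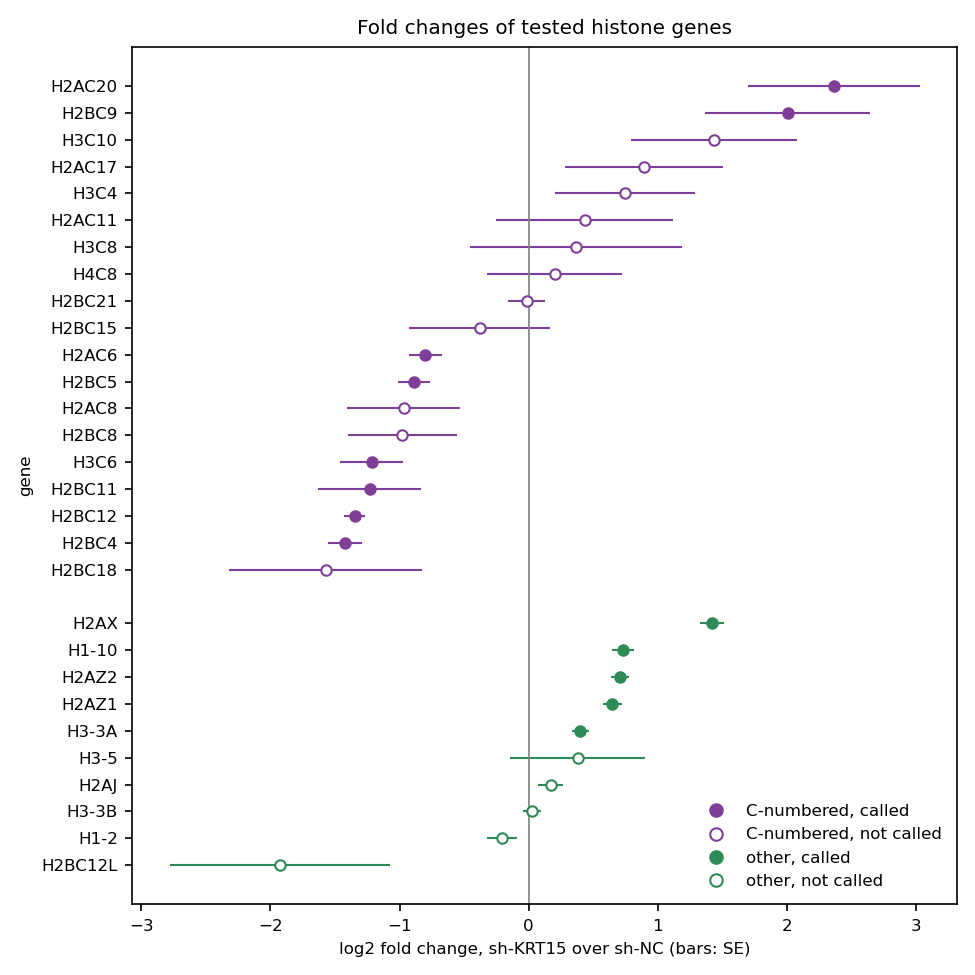
Log2 fold change, sh-KRT15 over sh-NC, of 29 of the 30 tested histone genes, with C-numbered genes above and other histone genes below. Points are estimates of edgeR and bars their SE, and filled points passed the test. Most filled C-numbered points lie left of 0, except H2AC20 and H2BC9, and each filled point of the other genes lies right of 0.

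Of the H2A variants, H2AX (chr11:119093874-119095465), whose protein is phosphorylated around DNA breaks, moved most. It was at 80.4, 70.4 and 90.2 CPM in sh-KRT15, against 30.2, 29.6 and 30.3 CPM in sh-NC. The lowest sh-KRT15 library was thus above the highest sh-NC library by a wide margin, and H2AX rose by 1.42 ± 0.09 (log2, SE, edgeR adjusted p = 2.38e-09), or 2.68-fold. The gene overlaps DPAGT1 on the map, and no strand setting is known. DPAGT1 had a log2 fold change of 0.05 ± 0.08 (SE, edgeR adjusted p = 0.658), and how reads of the shared stretch were counted was not tested. H2AX is a mixed gene in form, with a stem-loop in its 3′ UTR and a longer annotated model past it. Of the other genes shown with the core, H2BC9 rose too, H2AC6, H2BC4, H2BC5 and H3C6 fell, and H2BC21 did not pass.

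H2AZ1 (chr4:99948088-99950275) and H2AZ2 (chr7:44826889-44848126) encode both forms of H2A.Z, a variant found at promoters and placed there by the SRCAP and EP400 complexes. H2AZ1 was at 529.7, 573 and 523 CPM in sh-KRT15, against 319.5, 339.9 and 376.5 CPM in sh-NC. H2AZ2 was at 139, 133 and 137 CPM in sh-KRT15, against 80.8, 84.2 and 85.5 CPM in sh-NC. Both genes had groups apart. H2AZ1 rose by 0.65 ± 0.08 (log2, SE, edgeR adjusted p = 2.08e-06), and H2AZ2 rose by 0.71 ± 0.07 (log2, SE, edgeR adjusted p = 3.04e-07). The ratio of H2AZ1 to H2AZ2 reads was 3.82, 4.32 and 3.81 in sh-KRT15 and 3.95, 4.04 and 4.40 in sh-NC, so the pair kept nearly the same ratio, with a difference of -0.05 on the log2 scale (exact two-sided permutation p = 0.5, adjusted over 3 ratios 0.5). H2AJ (chr12:14774405-14778002), a variant known from senescent fibroblasts, was at 31.4, 34.4 and 31.2 CPM in sh-KRT15, against 26.1, 29.7 and 30.3 CPM in sh-NC. Its groups did not overlap, yet its log2 fold change of 0.17 ± 0.10 did not pass (SE, edgeR adjusted p = 0.155), and it passed after correction for GC content and length (log2 0.29, adjusted p = 0.00434).

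H3.3, the H3 variant of active chromatin, is encoded by H3-3A (chr1:226061831-226072019) and H3-3B (chr17:75776434-75779779), which give the same protein. H3-3A was at 165, 163 and 168 CPM in sh-KRT15, against 127, 126 and 123.5 CPM in sh-NC. H3-3A rose by 0.40 ± 0.07 (log2, SE, edgeR adjusted p = 0.000105), with groups apart. H3-3B was at 345, 371 and 351 CPM in sh-KRT15, against 343, 337 and 368 CPM in sh-NC. Its groups overlapped, with a log2 fold change of 0.03 ± 0.07 (SE, edgeR adjusted p = 0.778). The ratio of H3-3A to H3-3B reads was 0.479, 0.439 and 0.479 in sh-KRT15, against 0.370, 0.374 and 0.336 in sh-NC. The ratios of the groups did not overlap, by a difference of 0.37 on the log2 scale, and the exact two-sided permutation p of 0.1 is the smallest that 3 against 3 libraries allow (0.15 adjusted over 3 ratios). H3-5, a gene related to H3-3B, was at 0.830, 0.838 and 1.11 CPM in sh-KRT15, against 0.193, 0.758 and 1.19 CPM in sh-NC, with overlapping groups and a log2 fold change of 0.38 ± 0.52 (edgeR adjusted p = 0.586).

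Among linker histones, H1-10 (chr3:129314771-129316286), a replication-independent linker histone, was at 116, 114 and 128.5 CPM in sh-KRT15, against 64.1, 77.4 and 74.5 CPM in sh-NC. H1-10 rose by 0.73 ± 0.08 (log2, SE, edgeR adjusted p = 1.98e-06), with groups apart, and the overlapping H1-10-AS1 had 70 reads in sh-KRT15 and 35 in sh-NC. H1-2 (chr6:26055740-26056470), a linker gene of the cluster on chromosome 6, was at 24.9, 26.2 and 28.2 CPM in sh-KRT15, against 25.9, 29.1 and 36.4 CPM in sh-NC. Its groups overlapped and its log2 fold change of -0.20 ± 0.12 did not pass (SE, edgeR adjusted p = 0.166), but it was called lower after correction for GC content and length (log2 -0.24, adjusted p = 0.0173) and without sh-NC replicate 1 (log2 -0.30, adjusted p = 0.0465). H2BC12L was at 0.293, 0.0233 and 0.0247 CPM in sh-KRT15, against 0.359, 0.168 and 0.790 CPM in sh-NC. Its groups overlapped, and its log2 fold change of -1.93 ± 0.85 did not pass (SE, edgeR adjusted p = 0.0762), but it passed without sh-KRT15 replicate 1 (log2 -4.01, adjusted p = 0.0114). H2BC12L shares 100% of its 75-base windows with another annotated gene, so its few reads are less certain.

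Cluster genes often lie head to head, an H2B gene and an H2A gene reading away from a shared upstream stretch. Of 10 head-to-head pairs of any histone genes with starts within 1000 bases, 4 had both genes tested. Pairs were sought only among the 63 genes with an entry in the RefSeq promoter table, which gave the strand. H2AC12 (chr6:27147106-27147562, 6 reads), next to H2BC12, has no entry. Whether these genes form a pair was therefore not examined. The 10 include H3C4 with H2BC7 and H3C7 with H2BC9, which pair an H3 gene with an H2B gene. The start used for H3C4 is that of its RefSeq span, which overlaps H2AC7. H2BC4 and H2AC6, whose starts are 245 bases apart, both fell. The ratio of H2BC4 to H2AC6 reads was 0.744, 0.850 and 0.904 in sh-KRT15, against 1.14, 1.29 and 1.44 in sh-NC, so the groups lay apart, by -0.63 on the log2 scale, with the smallest exact two-sided permutation p possible, 0.1 (0.15 adjusted over 3 ratios). H2BC8 and H2AC8, 232 bases apart, had log2 fold changes of -0.98 and -0.97, of which neither passed. In the other two pairs 1 gene passed, and the difference within the pair was not tested. H2AC20 rose while H2BC21, 235 bases away, had a log2 fold change of -0.01, and H2BC11 fell while H2AC11, 247 bases away, was at 0.44 and not called.

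Upstream sequence was taken from RefSeq (GRCh38.p14) for the 63 of 69 genes in its promoter table, as the 250 bases before the annotated start. Shown are H2BC12, the most-read C-numbered gene, H2BC4 with the largest fall among called genes, and H2AX with the largest rise among the other genes. All 3 lie on the minus strand and are written in the direction of transcription. The stretch of H2BC12 is chr6:27146859-27147108, which reaches the RefSeq span of H2AC12. That of H2BC4 is chr6:26123927-26124176, which covers the stretch up to the start of H2AC6. For H2AX it is chr11:119095466-119095715. Capitals mark exact matches on either strand to TATAAA of the TATA box, to CCAAT of the box bound by NF-Y, to the octamer ATTTGCAT and to TTTGAA of the cell cycle genes homology region, and run together where matches overlap.
H2BC12: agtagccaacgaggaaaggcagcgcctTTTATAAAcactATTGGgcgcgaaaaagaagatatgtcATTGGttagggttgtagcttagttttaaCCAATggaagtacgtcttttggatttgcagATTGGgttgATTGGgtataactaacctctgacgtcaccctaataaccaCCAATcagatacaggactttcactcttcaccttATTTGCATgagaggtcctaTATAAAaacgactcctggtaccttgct
H2BC4: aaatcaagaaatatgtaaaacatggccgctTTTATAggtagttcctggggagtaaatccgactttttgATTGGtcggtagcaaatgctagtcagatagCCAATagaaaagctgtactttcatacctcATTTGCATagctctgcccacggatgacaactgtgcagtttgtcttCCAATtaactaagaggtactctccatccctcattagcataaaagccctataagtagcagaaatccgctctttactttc
H2AX: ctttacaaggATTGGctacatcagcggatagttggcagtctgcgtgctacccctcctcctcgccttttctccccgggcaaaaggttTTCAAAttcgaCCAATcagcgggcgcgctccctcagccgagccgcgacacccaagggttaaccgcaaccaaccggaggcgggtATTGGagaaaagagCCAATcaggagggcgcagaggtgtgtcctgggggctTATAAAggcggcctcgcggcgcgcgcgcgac
H2BC12 and H2AX hold TATAAA in the direction of transcription, whereas the match of H2BC4 lies on the opposite strand, at the end of the stretch next to H2AC6. All 3 hold CCAAT, H2BC12 and H2BC4 hold the octamer, and H2AX holds TTTGAA. The octamer was present in 22 of 29 upstream sequences of C-numbered H2A and H2B genes, 1 of 19 of C-numbered H3 and H4 genes, 1 of 15 of the other histone genes and 1.67% of all 27305 upstream sequences. The 1 among H3 and H4 genes was H3C4, whose RefSeq span overlaps H2AC7. CCAAT was present in 40 of 48 C-numbered genes, 12 of 15 other histone genes and 33.0% of all. TATAAA was present in 33 of the 48, 7 of the 15 and 11.2% of all. TTTGAA was present in 16 of the 48, 3 of the 15 and 13.6% of all. Of the 6 genes that fell, 6 had TATAAA, 6 had CCAAT and 4 had the octamer, while of the 7 matched genes that rose 4 had TATAAA, 6 had CCAAT and 2 had the octamer. All 6 that fell are C-numbered. Of those that rose only H2AC20 and H2BC9 are, and these are the 2 with the octamer. The motif counts of fallen and risen genes therefore cannot be read apart from gene class. Head-to-head genes with starts within 250 bases, such as H2BC4 and H2AC6, share nearly the same stretch. As matches on either strand count, such a stretch enters these counts once for each gene. A match is a run of letters and not a shown binding site.

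Genes that make or process histone mRNA changed in both directions. Of 28 listed, 27 were tested, and 11 rose, 3 fell and 13 did not pass, which is 51.9% called beside 45.0% over all tested genes, with a median log2 fold change of 0.13. All 27 had a mean of at least 1 CPM. Among all tested genes at that level, 24.2% were higher and 24.9% lower, so the share called was near that of such genes. SLBP, the stem-loop binding protein, was at 74.2, 70.5 and 67.9 CPM in sh-KRT15, against 56.3, 58.4 and 59.8 CPM in sh-NC. It rose by 0.29 ± 0.08 (log2, SE, edgeR adjusted p = 0.00612), with groups apart, so it moved against the sum of the C-numbered genes. NPAT, the coactivator of histone gene transcription, was at 21.4, 24.5 and 21.7 CPM in sh-KRT15, against 24.8, 24.2 and 19.5 CPM in sh-NC, with a log2 fold change of -0.02 ± 0.11 (SE, edgeR adjusted p = 0.893). The 4 called genes with the smallest p-values were CCNE2, a cyclin that activates NPAT with its kinase (0.99 ± 0.10, adjusted p = 4.38e-07), the cap-complex partner SRRT (0.78 ± 0.08, adjusted p = 7.26e-07), the helicase DHX9 (0.38 ± 0.07, adjusted p = 0.000282) and the uridylyltransferase TUT7 (-0.59 ± 0.12, adjusted p = 0.000979). CCNE2, SRRT and DHX9 rose and TUT7 fell. The other 2 that fell were LSM1, of a complex that binds mRNA for decay (-0.44 ± 0.10, adjusted p = 0.00194), and the exosome helicase MTREX (-0.24 ± 0.09, adjusted p = 0.031). Other listed genes with a part in RNA turnover rose, namely the nuclease ERI1 (0.30 ± 0.10, adjusted p = 0.028), the helicase UPF1 (0.33 ± 0.08, adjusted p = 0.0023) and the exosome nuclease EXOSC10 (0.27 ± 0.07, adjusted p = 0.00753), and TUT4 did not pass (-0.06 ± 0.12, adjusted p = 0.721).

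Carriers and exchangers of histone proteins mostly rose. Of 38 listed and tested, 26 rose and 12 did not pass, which is 68.4% called beside 45.0% over all tested genes, with a median log2 fold change of 0.39. With edgeR 0 was called lower, 3 had a negative change at an unadjusted p under 0.05 (ASF1A, ATRX and DAXX), DESeq2 called 1 lower and limma-voom 0. MCM2, a helicase subunit that also holds H3 and H4 at the fork, was at 79.4, 70.7 and 80.4 CPM in sh-KRT15, against 24.6, 25.7 and 24.4 CPM in sh-NC. MCM2 rose by 1.63 ± 0.09 (log2, SE, edgeR adjusted p = 1.38e-10). CHAF1B, a subunit of the chromatin assembly factor that deposits new H3 and H4 behind the fork, was at 26.3, 25.3 and 28.5 CPM in sh-KRT15, against 9.36, 9.96 and 8.83 CPM in sh-NC. CHAF1B rose by 1.51 ± 0.11 (adjusted p = 6.22e-09), the replication chaperone ASF1B by 1.30 ± 0.10 (adjusted p = 8.85e-09) and SSRP1 of the FACT complex by 0.79 ± 0.07 (adjusted p = 6.19e-08), all on the log2 scale. HIRA, which deposits H3.3, rose by 0.53 ± 0.10 (log2, SE, edgeR adjusted p = 0.000316), whereas DAXX and ATRX, another H3.3 chaperone and its partner, were at -0.17 ± 0.08 (adjusted p = 0.0919) and -0.33 ± 0.14 (adjusted p = 0.0636) and did not pass.

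Genes of DNA synthesis rose beside the chaperones. All 25 listed S phase genes rose, beside 22.1% of all tested genes, with a median log2 fold change of 1.34. The smallest adjusted p-values were those of the helicase subunits MCM4 (1.504 ± 0.07, adjusted p = 3.53e-11) and MCM2 and the nucleotide synthesis enzymes TYMS (1.42 ± 0.07, adjusted p = 9.81e-11) and TK1 (1.93 ± 0.10, adjusted p = 1.02e-10). Their sum was 1923 to 2063 CPM in sh-KRT15 and 779 to 808 CPM in sh-NC. The C-numbered sum thus went the other way from the genes that accompany DNA synthesis, and the part of any cell cycle difference in either was not tested. Of 3 histone genes outside the symbol rule, 2 rose. CENPA, the centromeric H3, was at 30.2, 29.7 and 24.5 CPM in sh-KRT15, against 16.2, 15.4 and 18.8 CPM in sh-NC, and rose by 0.74 ± 0.11 (log2, SE, edgeR adjusted p = 4.32e-05). MACROH2A1, an H2A with a macrodomain, rose by 0.47 ± 0.07 (log2, SE, edgeR adjusted p = 2.41e-05), and MACROH2A2 was at 0.18 ± 0.13 (adjusted p = 0.264).

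**Figure D5:**
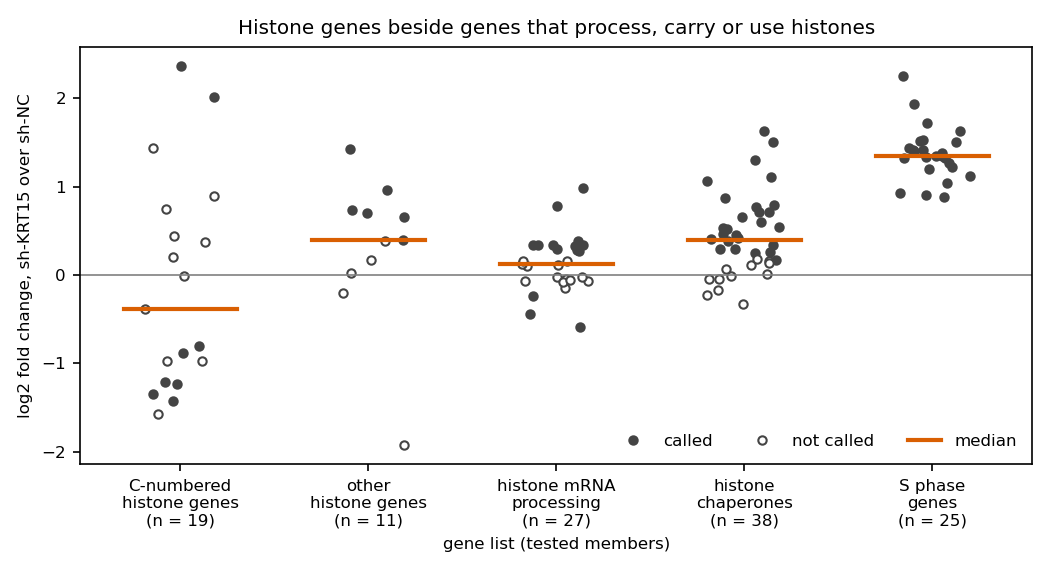
Log2 fold change, sh-KRT15 over sh-NC, of each tested gene in 5 lists, with filled points for genes that passed the test, open points for the rest and an orange bar at the median. The median is -0.38 for C-numbered histone genes, 0.40 for the other histone genes, 0.13 for histone mRNA processing, 0.39 for chaperones and 1.34 for S phase genes.

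Some markers of other cell types moved with the groups, while the mitochondrial share of reads, a sign of RNA quality, overlapped between them. Of 7 leukocyte markers, 3 were tested and all 3 were lower in sh-KRT15 (CD68, CSF1R and LYZ), with a list sum of 53.4 to 70.6 CPM in sh-KRT15 and 90.9 to 94.1 CPM in sh-NC, CD68 making up nearly all of it. Of 6 fibroblast markers, COL1A1 and LUM were lower and PDGFRB higher, with a sum of 7.85 to 8.57 CPM in sh-KRT15 and 17.7 to 23.3 CPM in sh-NC. Of 5 epithelial markers, KRT18 was higher and KRT7 and KRT8 did not pass, and none of the tested thyroid (3) and endothelial (1) markers passed. Mitochondrially encoded genes took 5.71, 4.86 and 6.54% of counted reads in sh-KRT15 and 4.99, 5.24 and 5.05% in sh-NC, with the groups overlapping. The part of these markers in the histone results was not tested.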

How the data were processed

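Cultured cells were lysed in TRIzol for RNA, and a provider purified mRNA and built Illumina libraries, per the labels' protocols. The deposited table holds raw read counts per gene, made by the authors from reads on GRCh38, per the submitters' processing notes. For the aligner, counting tool, annotation and strand, no source used here names a choice, so reads of overlapping or near-identical genes cannot be told apart. Libraries were placed in groups by their titles.

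Counts of 22681 genes were filtered with filterByExpr (minimum count 10, minimum total 15), scaled by TMM and tested with edgeR 4.0.16 in R 4.3.3 (robust quasi-likelihood test, group as the only term). P-values were adjusted over 14356 genes with the Benjamini-Hochberg method, and an adjusted p under 0.05 was called. The fit was tested on simulated data. No library pair agreed within sampling noise (chi-square per degree of freedom 6.05 to 29 within a group and 169 to 195 between groups). Permutation tests of ratios were exact.

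The members, gene lists and tests were chosen with earlier results of these data known. Named were KRT15, every tested histone gene (1 result is not reported here), untested ones with at least 10 reads, the 4 called genes of each pathway list with the smallest p-values and its exceptions, and cell type markers; genes named beyond that rule (SLBP, NPAT, ERI1, UPF1, EXOSC10, TUT4, HIRA, DAXX, ATRX, ASF1A and overlapping genes) were picked with their values in view. Gene spans and upstream sequence came from RefSeq (GRCh38.p14) and transcript models from GENCODE 29, matched by Entrez gene ID for 69, 63 and 68 of the 69 genes. Other settings are given with their effect in the closing section.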

Additional observations from a re-analysis of the deposited data

How the results depend on the processing

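Of the 14 called histone genes, 11 kept their call under all 16 other settings, and the exceptions were H2BC9, H2AC20 and H2BC11, while 10 of the 16 genes not called were never called. Over all settings run, 5 to 7 C-numbered genes were called lower and 6 to 7 other histone genes higher, and KRT15 stayed called lower (log2 -0.53 to -0.30). The 2 calls of C-numbered genes higher became 0 with a filter of at least 1 CPM in 3 libraries, which removes these genes, and ranged from 0 to 3 with 1 library left out. Lower calls among the other histone genes, 0 in the reported test, were 1 after correction for GC content and length (H1-2), 1 with limma-voom (H2BC12L) and 0 to 1 with 1 library left out. Lower calls among chaperones, also 0, were 1 with no filter, 1 after that correction, 1 with DESeq2, 2 with the replicate block and 0 to 2 with 1 library left out. The median log2 fold change of C-numbered genes, -0.38, was -0.01 with no filter (-0.0097), -1.21 at 1 CPM, -0.18 after that correction and -0.70 to -0.0293 with 1 library left out. The filter at 1 CPM kept H2BC11 only through sh-NC. That of the other genes, 0.40, was 0.66 at 1 CPM, 0.64 after that correction, 0.65 with limma-voom, 0.65 with H1-2, H2BC12L and other cluster-type genes moved to the replication-dependent class, 0.58 with the replicate block and 0.31 to 0.55 with 1 library left out. The log2 ratio of summed levels of C-numbered genes, -0.96, was -0.91 from total counts, -0.67 without the most-read gene and -0.80 for the replication-dependent class, and that of the other genes, 0.45, was 0.51 from total counts and 0.35 without the most-read gene. Among genes that were not called, the log2 fold change took the other sign for H3-3B after that correction (-0.0389) and for H2BC21 with total-count scaling (0.0456), with the replicate block (0.0002), after that correction (0.0134) and with limma-voom (0.0032). With 1 library left out the values of H2AC11 (-0.0535 to 1.303), H2BC15 (-0.6463 to 0.124), H2BC21 (-0.1426 to 0.1379), H3-5 (-0.0626 to 0.9589), H3C8 (-0.2052 to 1.056) and H4C8 (-0.0293 to 0.6934) spanned 0. Except where the construction of the setting is named, the cause was not tested. Same-numbered libraries did not deviate together (correlations of 0.019, -0.007 and 0.046), so the replicate block pairs libraries that share only a number. At the reads counted, 32 of the 51 C-numbered genes could not be tested.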
